A study of Mus musculus with 8 samples.

Results

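The matrix metalloproteinases, the ADAMTS proteases and the TIMPs form the enzymes and inhibitors that remodel extracellular matrix, and their transcripts were examined in the kidneys of diabetic mice given rFGF4 or vehicle. Members were chosen by symbol, as every gene of the deposited table named *Mmp*, *Adamts* or *Timp* with a number, with earlier results of these data known. This gave 46 of 55401 genes, of which 23 are *Mmp*, 19 are *Adamts* and 4 are *Timp* genes. No member passed the test for a difference between the groups. The members differed widely from mouse to mouse. Of the 22 that could be tested, 15 (68.2%) were highest in the same 2 mice, 1 from each group, as were 32% of all tested genes.

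The RNA came from kidney tissue of male mice, with 1 poly(A) library per mouse. The study's methods name the renal cortex for RNA extraction in their section on real-time PCR. Of the mice, 4 had received rFGF4 (rFGF4 mice) and the other 4 its vehicle (vehicle mice). The labels name the model of the 4 vehicle mice as *db*/*db* (leptin receptor mutant, obese and diabetic) and give only the treatment of the 4 rFGF4 mice, whereas the text of the study describes the sequenced animals as made diabetic with streptozotocin (STZ), and the model was not determined here. Treated *db*/*db* mice were C57BLKS/J animals bought at 8 to 10 weeks of age and first dosed at 12 weeks. rFGF4, a truncated recombinant human FGF4, was injected intraperitoneally on alternate days for 8 weeks at 1.0 mg/kg, with PBS as the vehicle. No separate schedule is given for the sequenced mice in the sources used here. No non-diabetic kidney was analysed here, so no level can be set against a healthy one.

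MMPs are zinc-dependent proteases that are made as inactive proenzymes and cut collagens, laminins, fibronectin and other matrix and cell surface proteins. ADAMTS proteases are secreted relatives that cut proteoglycans such as versican and aggrecan, trim procollagens, or act on other substrates. TIMPs bind the active site and inhibit MMPs, and TIMP3 also inhibits several ADAMTS and ADAM proteases. In the kidney these enzymes turn over the glomerular and tubular basement membranes and the interstitial matrix, and MMP7 is known as an epithelial protein of injured tubules.

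Levels are in FPKM (fragments mapped per kilobase of transcript, relative to all mapped fragments), which allows genes to be compared per length. A value of 0.0001 FPKM stands in the table in place of 0 and is called the floor. Values are listed throughout for rFGF4 mice 1, 2, 3 and 5 and then for vehicle mice 2, 3, 4 and 5. The number of fragments behind a value is unknown because no counts were used here, so the counting error of low values cannot be given. Summed FPKM ran from 389407 to 552604 per library, and mitochondrial transcripts took 19% to 38.4% of it. The 8 proximal tubule markers, which mark most cells of the kidney cortex, were measured in every library but summed to only 377 FPKM in rFGF4 mouse 1 against 931 to 1535 FPKM in the other 7 mice. Macrophage markers summed to 554 FPKM in rFGF4 mouse 1 and 574 FPKM in vehicle mouse 5, against 31.8 to 235 FPKM in the others. B cell markers reached 22909 FPKM in vehicle mouse 5, against 24.0 to 2716 FPKM in the others, so both of these libraries stood apart and results were also computed without them.

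Of the 23 *Mmp* genes, 10 lie side by side on chromosome 9, between positions 7272514 and 7699585 of GRCm38. The promoters of 7 of them share the letters of the AP-1 site, which the Fos and Jun proteins are known to bind in MMP genes. The window searched was the 300 bases from 250 before to 50 after each RefSeq start (GRCm38.p6), and the motif was TGAGTCA or its reverse complement TGACTCA, so that both strands were covered. The share over all windows was 5.20% (1709 of 32851), and 5.95% of genes had at least 1 such window. A window was found for 32 of the 46 members, and the motif stood in 7 of the 10 genes of the cluster and in 0 of the 22 other members. For the 7 genes, 80 bases of the RefSeq promoter are shown 5′ to 3′ on the strand of the gene, to show how the site recurs in front of neighbouring genes whose levels differ widely. The motif is in capitals, as TGACTCA in *Mmp13* and as TGAGTCA in the other 6.

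Mmp13, chr9:7272443-7272522, plus strand: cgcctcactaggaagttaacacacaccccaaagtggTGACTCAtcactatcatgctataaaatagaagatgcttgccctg
Mmp12, chr9:7347294-7347373, plus strand: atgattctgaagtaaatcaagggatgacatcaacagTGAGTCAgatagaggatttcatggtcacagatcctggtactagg
Mmp1b, chr9:7388076-7388155, minus strand: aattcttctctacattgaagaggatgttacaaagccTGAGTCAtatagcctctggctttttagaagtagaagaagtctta
Mmp3, chr9:7445740-7445819, plus strand: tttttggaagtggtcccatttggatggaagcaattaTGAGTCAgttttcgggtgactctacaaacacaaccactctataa
Mmp1a, chr9:7464032-7464111, plus strand: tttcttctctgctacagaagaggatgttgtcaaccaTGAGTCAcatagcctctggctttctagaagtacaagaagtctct
Mmp10, chr9:7502243-7502322, plus strand: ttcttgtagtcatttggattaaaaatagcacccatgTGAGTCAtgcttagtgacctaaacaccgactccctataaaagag
Mmp7, chr9:7691991-7692070, plus strand: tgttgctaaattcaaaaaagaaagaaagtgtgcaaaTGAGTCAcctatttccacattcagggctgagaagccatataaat

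Read towards the start, the first base of the motif was 35 bases before it in *Mmp13*, 44 in *Mmp12* (at its second RefSeq start), 46 in *Mmp3*, 63 in both *Mmp10* and *Mmp7*, 73 in *Mmp1a* and 93 in *Mmp1b*. The presence of these letters is a description of the sequence, and binding was not measured. The motif did not go with 1 common level, since *Mmp7* had it and reached 70.4 FPKM, whereas *Mmp1a* and *Mmp1b* had it and stood at the floor in all 8 mice. *Mmp8*, *Mmp20* and *Mmp27* are the members of the cluster without it in this window.

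Genes with at least 0.5 FPKM in at least 4 libraries were tested, which 22 of the 46 members and 15150 genes in all did. These were 11 *Mmp*, 8 *Adamts* and 3 *Timp* genes, of which 12 reached 0.5 FPKM in all 8 mice, and 0 passed through 1 group alone. Fold changes are differences between group means of log2(FPKM + 1), rFGF4 minus vehicle, tested with limma's moderated test, and they understate changes of low genes. In bulk tissue, fewer cells of a type and less RNA per cell cannot be told apart.

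**Figure D1:**
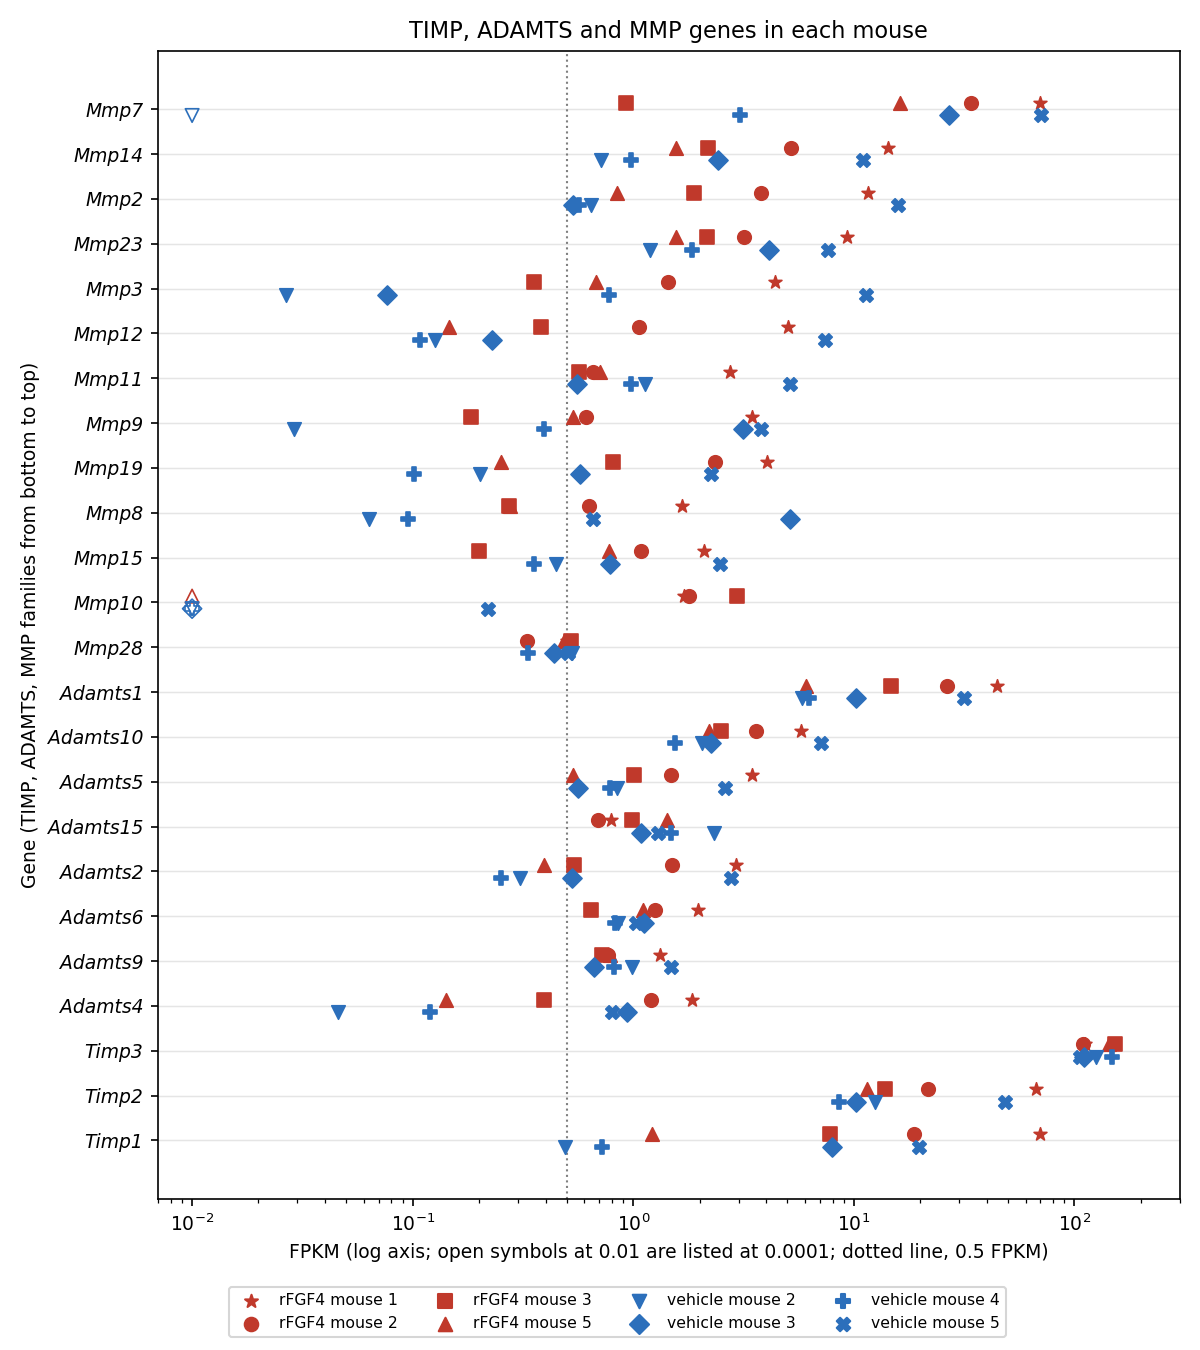
Level of each tested *Timp*, *Adamts* and *Mmp* gene, and of *Mmp10* and *Mmp12*, in FPKM on a log axis, with 1 symbol per mouse (red, rFGF4; blue, vehicle; open symbols, listed at 0.0001). The star of rFGF4 mouse 1 and the cross of vehicle mouse 5 lie at the right of most rows, whereas the 8 symbols of *Timp3* lie close together between 106 and 153 FPKM.

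No difference between the groups passed the test. With limma, 0 of the 22 tested members had an unadjusted p under 0.05, against 4.62% (700) of the 15150 genes tested. At the threshold of the study, which adds a fold change of at least 1.5, 0 of 22 were called against a background of 1.52% (231 genes). After Benjamini-Hochberg adjustment over all tested genes, 0 members and 0% of all genes passed 0.05, and the adjusted p of the members in limma ran from 0.918 to 0.994. The groups overlapped for all 22 members, where 3.33% (504) of all tested genes had groups that did not overlap. Without both libraries that stood apart, 1 member (*Mmp2*) had an unadjusted p under 0.05 and passed the threshold of the study, where 5.68% (860) of all tested genes had such a p and 1.80% (273) passed the threshold. With 4 mice against 4, the smallest two-sided exact permutation p is 0.0286.

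Of the 22 members, 17 had a higher mean in rFGF4 mice and 5 a lower one. That is 77.3% of the members against 67.1% of all tested genes, and the median log2 fold change was 0.18 over the members and 0.09 over all tested genes. The count moved with single mice: 9 of 22 were higher without rFGF4 mouse 1 (median of all genes 0.01) and 20 of 22 without vehicle mouse 5 (median of all genes 0.15), while 17 of 22 were higher without both. It fell to 13 of 22 with libraries brought to a common median ratio, which also moved the median of all genes to -0.01.

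**Figure D2:**
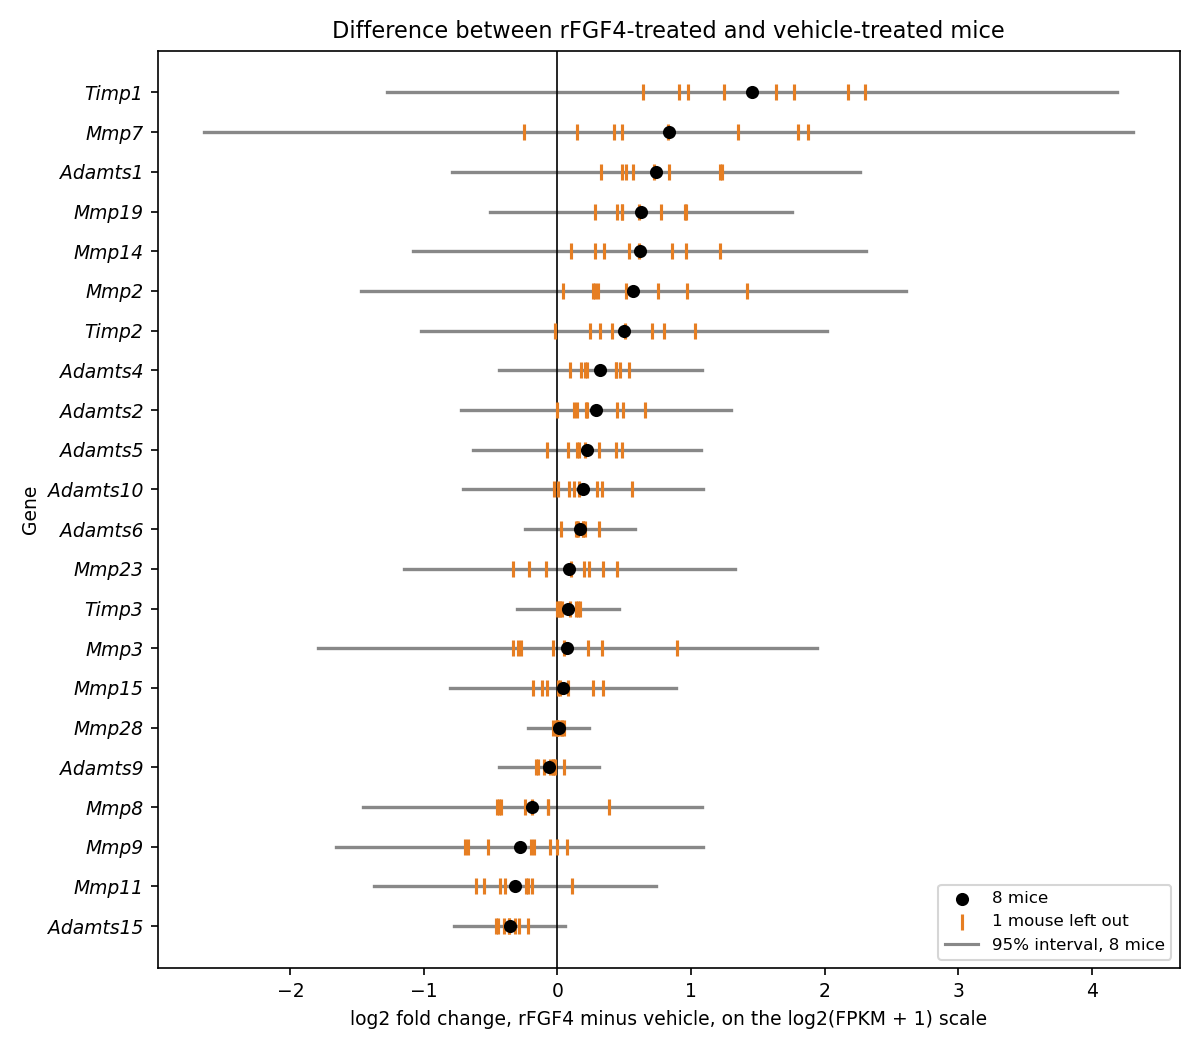
Log2 fold change of each tested member, rFGF4 minus vehicle on the log2(FPKM + 1) scale, with all 8 mice (black points), its 95% interval from limma (grey lines) and the values with 1 mouse left out (orange ticks). Each of the 22 intervals crosses 0, and the widest belong to *Mmp7* and *Timp1*.

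Among the inhibitors, *Timp3* carried most of the transcript. *Timp3*, which encodes the TIMP that is held in the matrix, stood at 112, 110, 153 and 144 FPKM in rFGF4 mice and at 125, 111, 148 and 106 FPKM in vehicle mice. It varied little, the groups overlapped almost entirely, and it made up 45.1% to 91.9% of summed *Timp* FPKM in rFGF4 mice and 60.7% to 94.0% in vehicle mice. Its log2 fold change was 0.08 with a 95% interval of -0.31 to 0.46 (limma, adjusted p = 0.956), and the sign turned to -0.05 with the median ratio scaling. Exons of *Timp3* overlap *Syn3* on the opposite strand, and whether the counting used strand is not given in the sources used here.

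*Timp2*, an inhibitor that also takes part in the activation of pro-MMP2, stood at 67.2, 21.7, 13.9 and 11.4 FPKM in rFGF4 mice and at 12.5, 10.3, 8.56 and 48.5 FPKM in vehicle mice. *Timp1*, the inducible TIMP of injured and inflamed tissue, stood at 69.4, 18.8, 7.83 and 1.22 FPKM and at 0.491, 7.98, 0.723 and 19.8 FPKM in the same order. For both genes rFGF4 mouse 1 and vehicle mouse 5 were the highest mice of their groups, and for *Timp1* vehicle mouse 3 also lay well above the other 2 vehicle mice. *Timp1* had the wider range of the 2, and its lowest value was in vehicle mouse 2. The log2 fold change was 0.50 ± 0.66 (SE) for *Timp2* and 1.46 ± 1.19 (SE) for *Timp1* (limma, adjusted p = 0.937 and 0.920), with exact permutation p of 0.486 and 0.343. With 1 mouse left out the *Timp1* value ran from 0.64 (without rFGF4 mouse 1) to 2.30 (without rFGF4 mouse 5), and that of *Timp2* from -0.020 (without rFGF4 mouse 1) to 1.03 (without vehicle mouse 5). *Timp4* was at the bottom of the family, at 0.00859, 0.124, 0.0718 and 0.0385 FPKM in rFGF4 mice and at 0.114, 0.255, 0.0936 and 0.0637 FPKM in vehicle mice. It stayed under the filter, the groups overlapped, and its exact permutation p was 0.229.

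Of the proteases, *Mmp7* had the highest single values. *Mmp7*, which encodes matrilysin, a small MMP made by epithelial cells, stood at 69.5, 34.1, 0.931 and 16.2 FPKM in rFGF4 mice. In vehicle mice it was at the floor, 27, 3.06 and 70.4 FPKM. Both groups thus ran from near or under 1 FPKM to about the same top value, and the spread within groups on the log2 scale (pooled SD 2.52) was the largest of the 22 members. The log2 fold change of 0.83 ± 1.52 (SE) had a 95% interval of -2.64 to 4.31 (limma, adjusted p = 0.953), and it turned to -0.25 without vehicle mouse 2. *Mmp7* alone took 0.00183% to 66.3% of the summed FPKM of the 23 *Mmp* genes.

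*Mmp14* (MT1-MMP), a protease anchored in the cell membrane, and *Mmp2* (gelatinase A), the proenzyme it activates together with TIMP2, moved across mice with *Timp2*. *Mmp14* stood at 14.2, 5.18, 2.17 and 1.56 FPKM in rFGF4 mice and at 0.712, 2.42, 0.972 and 11.0 FPKM in vehicle mice. *Mmp2* stood at 11.6, 3.78, 1.88 and 0.842 FPKM and at 0.643, 0.531, 0.567 and 15.8 FPKM. For *Mmp2*, 3 of the 4 vehicle mice lay below every rFGF4 mouse and vehicle mouse 5 lay above all of them. The log2 fold change was 0.62 ± 0.74 (SE) for *Mmp14* and 0.57 ± 0.89 (SE) for *Mmp2* (limma, adjusted p = 0.931 and 0.946). The *Mmp14* value ran from 0.10 without rFGF4 mouse 1 to 1.22 without vehicle mouse 5, and the *Mmp2* value was 0.043 without rFGF4 mouse 1. Without vehicle mouse 5 the *Mmp2* difference was 1.42 with an unadjusted p of 0.0436 and an adjusted p of 0.620 in limma, and the groups no longer overlapped. In that setting 6.51% of all tested genes had an unadjusted p under 0.05 and 10.8% had groups that did not overlap, so 1 of 22 members is no more than the background. Without both that mouse and rFGF4 mouse 1 it was 0.90, with an unadjusted p of 0.0344 and an adjusted p of 0.753 in limma, where 5.68% of all tested genes passed 0.05 unadjusted and 13.3% had groups that did not overlap.

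Over the 8 mice, *Mmp2* and *Timp2* correlated on the log2 scale with Pearson's r of 0.970 and Spearman's rho of 0.929 (exact permutation p = 0.00124 and 0.00223; adjusted over the 3 pairs, 0.00218 and 0.0067). *Mmp14* and *Mmp2* had r of 0.951 and rho of 0.714 (exact permutation p = 0.00218 and 0.0576; adjusted, 0.00218 and 0.0576). *Mmp14* and *Timp2* had r of 0.950 and rho of 0.762 (exact permutation p = 0.00156 and 0.0368; adjusted, 0.00218 and 0.0551). Within the groups r lay between 0.985 and 0.993 in rFGF4 mice and between 0.912 and 0.985 in vehicle mice, with 4 mice each and no test. Leaving out rFGF4 mouse 1 and vehicle mouse 5, the 2 mice farthest from the median, left r of 0.932 and rho of 0.886 for *Mmp2* and *Timp2* over 6 mice (exact permutation p = 0.00833 and 0.0333). For *Mmp14* and *Mmp2* it left r of 0.823 and rho of 0.371 (exact permutation p = 0.0486 and 0.497), and for *Mmp14* and *Timp2* r of 0.762 and rho of 0.429 (exact permutation p = 0.0847 and 0.419). These p-values over 6 mice were not adjusted over the 3 pairs. Unadjusted, *Mmp2* and *Timp2* were under 0.05 by both measures, *Mmp14* and *Mmp2* by r alone, and *Mmp14* and *Timp2* by neither. All 3 pairs kept a positive r, with few mice left to test. The fibroblast markers summed to 131, 62.0, 35.9 and 22.1 FPKM in rFGF4 mice and 16.2, 26.8, 13.8 and 142 FPKM in vehicle mice. They had the same 2 mice on top, and their part in these relations was not tested. Those 2 mice were also the 2 highest for 32% of all tested genes. Correlations of other gene pairs were not computed, so these values do not set the 3 pairs apart from other genes.

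**Figure D3:**
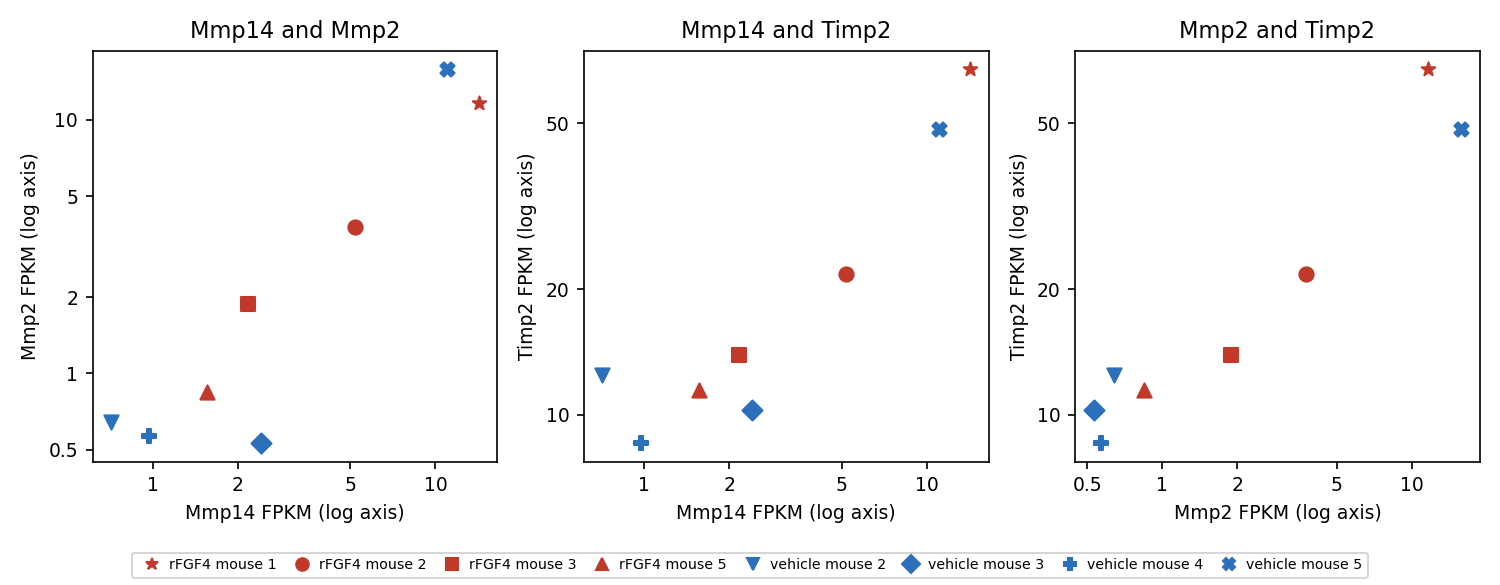
Levels of *Mmp14*, *Mmp2* and *Timp2* against each other in the 8 mice, in FPKM on log axes, with 1 symbol per mouse (red, rFGF4; blue, vehicle). rFGF4 mouse 1 and vehicle mouse 5 lie at the upper right of all 3 panels, and among the other 6 mice the order is kept best for *Mmp2* and *Timp2*.

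Of the other tested MMPs, *Mmp23*, whose product sits in the membrane of the secretory pathway, was detected in every mouse at 1.19 to 9.32 FPKM, with a log2 fold change of 0.09. *Mmp3* (stromelysin-1), which cuts many matrix proteins and activates other pro-MMPs, stood at 4.39, 1.43, 0.353 and 0.675 FPKM in rFGF4 mice and at 0.0267, 0.0761, 0.778 and 11.4 FPKM in vehicle mice. Its vehicle mice alone spanned the whole range of both groups, and the log2 fold change was 0.07 ± 0.82 (SE). *Mmp11* (stromelysin-3), a stromal MMP that is activated inside the cell by furin, ran from 0.568 to 2.75 FPKM in rFGF4 mice and from 0.555 to 5.11 FPKM in vehicle mice, with the top values again in rFGF4 mouse 1 and vehicle mouse 5. *Mmp19* ran from 0.251 to 4.05 FPKM and from 0.102 to 2.24 FPKM, and its log2 fold change of 0.63 ± 0.49 (SE) had the smallest p of the tested MMPs (unadjusted p = 0.240, adjusted p = 0.920 in limma) and ran from 0.28 without rFGF4 mouse 1 to 0.96 without vehicle mouse 5. *Mmp15* (MT2-MMP) lay between 0.20 and 2.48 FPKM over all mice, with a log2 fold change of 0.04. *Mmp28* (epilysin) was low and even, at 0.328 to 0.528 FPKM, and its log2 fold change of 0.01 had a 95% interval of -0.22 to 0.23. *Mmp11* and *Mmp19* are among 7 tested members whose exons overlap another gene on the opposite strand, the others being *Mmp7*, *Mmp28*, *Adamts4*, *Adamts9* and *Timp3*, so their reads cannot be told apart from those of the partner if strand was not used.

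Of the MMPs known from neutrophils, *Mmp8* and *Mmp9* had vehicle mouse 3 among the 3 highest mice, whereas *Mmp25* (MT6-MMP) peaked at 0.858 FPKM in vehicle mouse 5 and stood at 0.234 FPKM in vehicle mouse 3. *Mmp8* (neutrophil collagenase) stood at 1.66, 0.630, 0.274 and 0.277 FPKM in rFGF4 mice and at 0.0635, 5.13, 0.0956 and 0.660 FPKM in vehicle mice, so that vehicle mouse 3 was highest. *Mmp9* (gelatinase B) stood at 3.46, 0.609, 0.184 and 0.532 FPKM and at 0.0289, 3.14, 0.394 and 3.77 FPKM. Vehicle mouse 2 was the lowest for both genes. The 8 neutrophil markers summed to 391 FPKM in vehicle mouse 3, the highest sum, and to 3.07 FPKM in vehicle mouse 2, the lowest. The sum ran from 22.7 to 260 FPKM in rFGF4 mice and was carried by *S100a8* and *S100a9*. Of the other markers, *Ngp*, *Camp*, *Mpo* and *Elane* were highest in rFGF4 mouse 1 and lower in vehicle mouse 3, at 17.4 against 5.65 FPKM for *Ngp*, whereas *Retnlg* and *Ly6g* were highest in vehicle mouse 3, at 16.7 against 12.2 FPKM for *Retnlg*. Of the 8 markers 4 could be tested, and *Ly6g*, *Ngp*, *Camp*, *Mpo* and *Elane* were at the floor in at least 1 library. The part of neutrophils in these values was not tested. Without vehicle mouse 3 the log2 fold change of *Mmp8* turned from -0.19 to 0.39, and that of *Mmp9* from -0.28 to 0.00044, and with all mice neither passed the test (limma, adjusted p = 0.970 and 0.956).

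*Mmp10* and *Mmp12* reached 1 FPKM in some mice but did not pass the filter. *Mmp10* (stromelysin-2) stood at 1.69, 1.78 and 2.97 FPKM in rFGF4 mice 1, 2 and 3 and at the floor in rFGF4 mouse 5. In vehicle mice it was at the floor in 3 mice and at 0.220 FPKM in mouse 5. The groups overlapped through rFGF4 mouse 5 and the exact permutation p was 0.143. With every gene above the floor in at least 1 library fitted, its log2 fold change was 1.15 ± 0.39 (SE) with an unadjusted p of 0.0188 and an adjusted p of 0.914 in limma, so that it passed the threshold of the study with no filter, as did 0.751% of the 30244 genes then fitted and 1 of 43 members. *Mmp12* (macrophage metalloelastase) stood at 5.03, 1.06, 0.382 and 0.146 FPKM and at 0.126, 0.228, 0.108 and 7.38 FPKM. Its highest values fell in vehicle mouse 5 and rFGF4 mouse 1, where the macrophage markers were highest too, and its exact permutation p was 0.771.

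**Figure D4:**
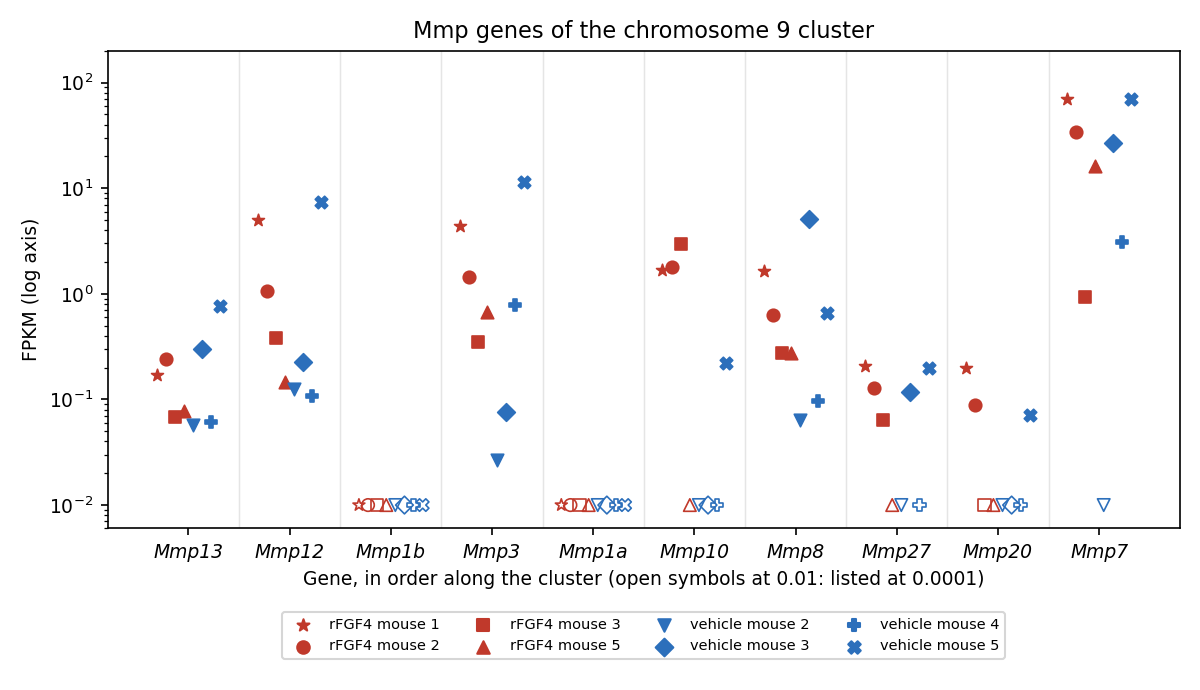
Level of the 10 *Mmp* genes of the chromosome 9 cluster in each mouse, in FPKM on a log axis, in their order along the chromosome (red, rFGF4; blue, vehicle; open symbols, listed at 0.0001). *Mmp7* at the right end reaches 70.4 FPKM, *Mmp1a* and *Mmp1b* are at the floor in all 8 mice, and *Mmp10* is above 1 FPKM in 3 rFGF4 mice alone.

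Of the ADAMTS genes, *Adamts1*, which encodes a versican- and aggrecan-cutting protease, was the most abundant. It stood at 44.5, 26.5, 14.8 and 6.07 FPKM in rFGF4 mice and at 5.82, 10.3, 6.26 and 31.6 FPKM in vehicle mice. Each rFGF4 mouse lay above the lowest vehicle mouse, but vehicle mouse 5 lay above 3 of the 4 rFGF4 mice, and the log2 fold change of 0.74 ± 0.67 (SE) did not pass (limma, adjusted p = 0.921, exact permutation p = 0.371). It ran from 0.32 without rFGF4 mouse 1 to 1.23 without vehicle mouse 5. The other proteoglycan-cutting members were far lower, with *Adamts4* at 0.0457 to 1.85 FPKM, *Adamts5* at 0.535 to 3.46 FPKM and *Adamts9* at 0.661 to 1.48 FPKM over all mice. Their log2 fold changes were 0.32, 0.22 and -0.06.

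*Adamts15*, another protease of versican and aggrecan, had the smallest p of the 22 members and went the other way. It stood at 0.794, 0.690, 0.982 and 1.42 FPKM in rFGF4 mice and at 2.31, 1.08, 1.48 and 1.30 FPKM in vehicle mice. The 3 lowest mice had received rFGF4, and rFGF4 mouse 5 overlapped the vehicle mice. The log2 fold change was -0.36 ± 0.18 (SE), with an unadjusted p of 0.0838 and an adjusted p of 0.918 in limma and an exact permutation p of 0.114. Without rFGF4 mouse 5 it was -0.46, with an unadjusted p of 0.0378 and an adjusted p of 0.521 in limma, and the groups no longer overlapped. Without that mouse 9.44% of all tested genes had an unadjusted p under 0.05 and 11% had groups that did not overlap.

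*Adamts10*, a protease of fibrillin microfibrils, was present in every mouse at 1.55 to 7.12 FPKM, with a log2 fold change of 0.19. *Adamts2*, which trims the N-propeptide of fibrillar procollagens, ran from 0.394 to 2.92 FPKM in rFGF4 mice and from 0.250 to 2.79 FPKM in vehicle mice, with a log2 fold change of 0.29. *Adamts6*, the close relative of *Adamts10*, ran from 0.644 to 1.97 FPKM and from 0.827 to 1.12 FPKM, with a log2 fold change of 0.17. None of these 3 passed the test (limma, adjusted p = 0.953, 0.945 and 0.925).

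The other 24 members did not pass the filter, and 20 of them stayed under 1 FPKM in every mouse. The 4 that reached 1 FPKM in at least 1 mouse were *Mmp10*, *Mmp12*, *Adamts7* (at most 1.10 FPKM) and *Adamts16* (at most 1.35 FPKM). *Adamts14*, *Mmp17*, *Mmp25*, *Mmp13*, *Adamts12*, *Adamts13*, *Adamts8*, *Mmp27*, *Mmp24*, *Adamts3*, *Mmp20* and *Timp4* peaked between 0.115 FPKM in *Adamts3* and 0.858 FPKM in *Mmp25*. *Adamts13*, which encodes the protease of von Willebrand factor, was among these with a highest value of 0.521 FPKM. *Mmp16*, *Adamts20*, *Adamts17*, *Mmp21* and *Adamts18* peaked between 0.00483 and 0.0317 FPKM. *Mmp1a*, *Mmp1b* and *Adamts19* were listed at the floor in all 8 mice. *Mmp1a* and *Mmp1b* are near copies of each other, and reads that match both could be split or dropped in counting.

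Across the families, the same 2 mice were on top for most members. rFGF4 mouse 1 and vehicle mouse 5 were the 2 highest mice for 15 of the 22 tested members (68.2%) and for 32.0% of all tested genes. The highest mouse was 1 of these 2 for 18 of 22 members (81.8%) and for 61.6% of all tested genes. The summed FPKM of the 23 *Mmp* genes was 132, 57.3, 13.9 and 24.4 in rFGF4 mice and 5.46, 46.2, 10.0 and 141 in vehicle mice. The 19 *Adamts* genes summed to 66.2, 38.4, 22.9 and 13.7 FPKM and to 14.6, 19.6, 13.2 and 51.5 FPKM. The 4 *Timp* genes summed to 249, 150, 175 and 157 FPKM and to 139, 129, 157 and 174 FPKM, a narrower range. Without *Timp3* the other 3 summed to 137, 40.6, 21.8 and 12.7 FPKM and to 13.1, 18.5, 9.37 and 68.4 FPKM, with the same 2 mice on top as for the proteases. With *Timp3* included, the summed *Timp* FPKM was 1.25, 1.57, 4.76 and 4.11 times the summed protease FPKM in rFGF4 mice and 6.92, 1.97, 6.75 and 0.904 times in vehicle mice, so the ratio overlapped between groups and was lowest in vehicle mouse 5 and rFGF4 mouse 1.

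All 8 macrophage markers were tested and none was at the floor. Their sum was 554, 235, 75.2 and 47.2 FPKM in rFGF4 mice and 31.8, 140, 35.6 and 574 FPKM in vehicle mice. The 4 mice with the highest sums were also the 4 highest for 8 of the 22 tested members (36.4%) and for 17.4% of all tested genes. *Timp1* and *Mmp14*, picked here after their values were seen, followed the macrophage sum through all 8 mice except that the top 2 changed places. All 7 fibroblast markers were tested too, at 22.1 to 131 FPKM in rFGF4 and 13.8 to 142 FPKM in vehicle mice. The part of these cells in the spread of the members was not tested.

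**Figure D5:**
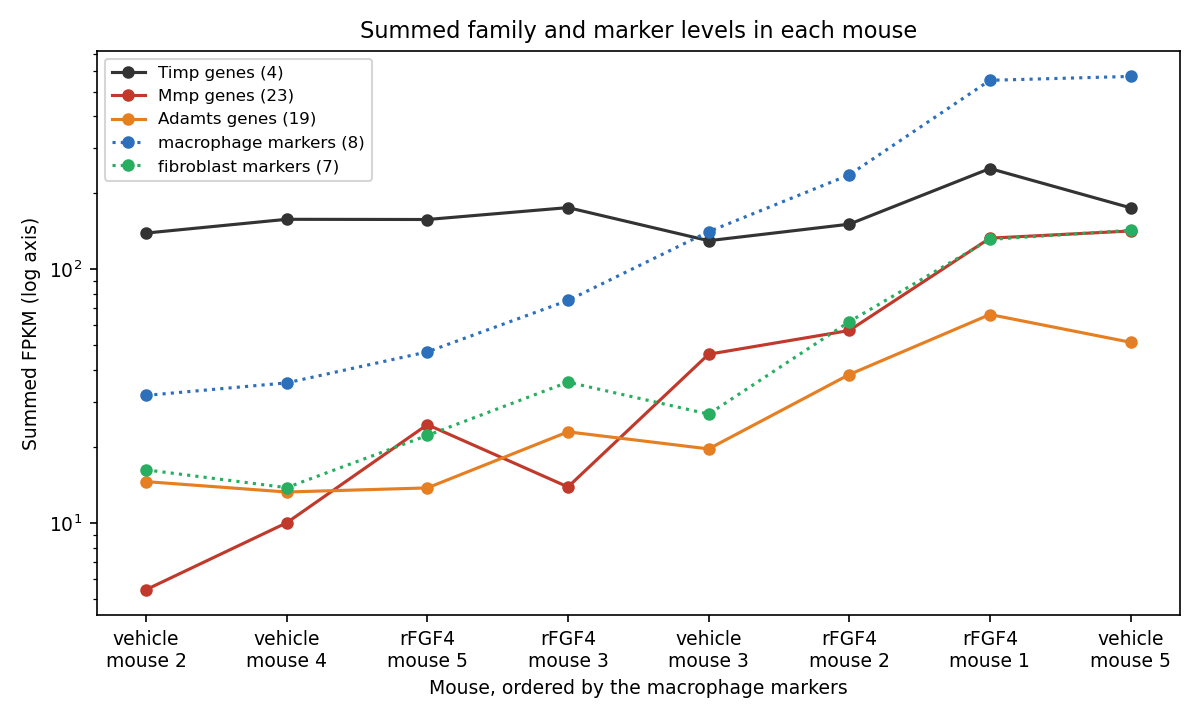
Summed FPKM on a log axis of the *Timp*, *Mmp* and *Adamts* genes (solid lines) and of the macrophage and fibroblast markers (dotted lines) in each mouse, with mice ordered by the macrophage sum. The *Mmp* sum runs from 5.46 to 141 FPKM and the *Adamts* sum from 13.2 to 66.2 FPKM, while the *Timp* sum stays between 129 and 249 FPKM.

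The spread within groups separated the members into variable and steady ones. The median pooled SD on the log2(FPKM + 1) scale was 0.779 over the 22 members and 0.275 over all tested genes, and 17 of 22 members lay above the median of all genes. The most variable after *Mmp7* were *Timp1* at 1.98, *Mmp2* at 1.47, *Mmp3* at 1.35 and *Mmp14* at 1.22. The 5 steady members were *Adamts15* at 0.260, *Adamts6* at 0.259, *Timp3* at 0.229, *Adamts9* at 0.227 and *Mmp28* at 0.0892, and of these *Timp3* alone was abundant. The pseudocount narrows the spread of genes near 1 FPKM and below, which applies to the other 4.

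The surrounding pathway held 1 gene with an unadjusted p under 0.05 in limma. Of the 12 tested activators of pro-MMPs and members of the plasminogen system, 1 was higher and 0 were lower at an unadjusted p under 0.05, where 4.62% of all tested genes passed. It was *Furin*, the convertase that activates MMP14, MMP11 and ADAMTS proenzymes, at 19.6, 19, 19.6 and 16.0 FPKM in rFGF4 mice and 13.5, 14.7, 14.9 and 13.9 FPKM in vehicle mice. The groups did not overlap, as for 3.33% of all tested genes, and the log2 fold change of 0.35 ± 0.11 (SE) had an unadjusted p of 0.010 and an adjusted p of 0.918 in limma and was below the fold limit of the study. The difference was 0.23 with an unadjusted p of 0.0985 in limma with libraries brought to a common median ratio. *Plau* (urokinase) was the most abundant plasminogen activator at 95.2 to 239 FPKM in rFGF4 and 104 to 246 FPKM in vehicle mice, with a log2 fold change of -0.10.

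In the other 4 lists of the pathway (matrix substrates, further inhibitors, other metalloproteases and ADAMTS-like genes) 0 genes had an unadjusted p under 0.05 in either direction with limma. Among the 18 tested matrix substrates, such as collagens, fibronectin and biglycan, 14 had a higher mean in rFGF4 mice and the median log2 fold change was 0.40, against 67.1% higher and a median of 0.09 over all tested genes. *Fn1* (fibronectin) stood at 27.3, 5.33, 4.85 and 1.83 FPKM in rFGF4 mice and at 1.62, 3.02, 1.20 and 13.5 FPKM in vehicle mice, with the same 2 mice on top as for most proteases. Of 7 tested protease inhibitors beside the TIMPs, 6 had a higher mean in rFGF4 mice, with a median log2 fold change of 0.26. *Reck*, a membrane-bound MMP inhibitor, had a log2 fold change of -0.07. The 9 tested ADAM, meprin and BMP1 family proteases had a median of 0.10, and the 3 tested ADAMTS-like genes, which lack the protease domain, a median of 0.28.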

How the data were processed

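Kidney RNA of 8 mice was analysed, 4 rFGF4-treated and 4 vehicle-treated, grouped by the labels. The authors deposited 1 table of FPKM per gene, made with StringTie from transcripts that Gffcompare combined over the libraries. The submitters' processing notes list HISAT2 2.0, Bowtie 0.12.2, StringTie 1.3.0 and the build mm8, without roles. The deposited table also holds the authors' edgeR comparison (fold change, p-value, q-value), which was not used. No counts were used, so depth is unknown.

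Members and gene lists were chosen with earlier results of these data known. Genes that reached 0.5 FPKM in at least 4 libraries were fitted as log2(FPKM + 1) with limma 3.58.1 (trend) in R 4.3.3, with Benjamini-Hochberg adjustment over all 15150. For 1 gene alone, a two-sided exact permutation test over all 70 splits was used. Scripts were tested on simulated data. Nothing says whether mice differ in batch, and p-values measure the spread between these mice.

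Every member was accounted for. The 6 with the highest mean FPKM, every *Timp*, and members with an unadjusted p under 0.05 or groups that did not overlap were to be given mouse by mouse. *Mmp2*, *Mmp3*, *Mmp8*, *Mmp9*, *Mmp10*, *Mmp12* and *Adamts15* were given so after their values were seen. Gene positions came from GENCODE M21 (GRCm38), which held 99.5% of the identifiers, and promoters from RefSeq (GRCm38.p6); the build behind the FPKM was not settled, and no read position was used.

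Alternatives were pseudocounts of 0.1 and 0.5, no filter, a mean of at least 1 FPKM, 3 scalings, array weights, a fold limit of 2, each mouse left out and a block for shared mouse numbers. Leaving out rFGF4 mouse 1 and vehicle mouse 5 together was added after seeing the data.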

Additional observations from a re-analysis of the deposited data

Results flagged for a closer look

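In groups of 4 mice, a mouse was singled out when its gap to the next, divided by the range of the group on the log2(FPKM + 1) scale, passed Dixon's critical value for 4 samples. Of 54 groups examined 5 passed. Independent groups would give about 1 in 20, or 2.7, but these groups share the same mice. The share over all tested genes was not computed, so the 5 say nothing about the members as a set. In vehicle mice the highest mouse was vehicle mouse 5 for *Mmp2* (0.970), *Mmp12* (0.949) and *Mmp10* (1, since the other 3 mice were at the floor). In rFGF4 mice it was rFGF4 mouse 1 for *Mmp11* (0.901) and *Adamts9* (0.884). The summed markers of macrophages, fibroblasts, B cells, T cells and lymph node stroma were highest in the same 2 mice. The part of these cells in these values was not tested.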

How the results depend on the processing

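The count of members past an adjusted p of 0.05 was 0 under every alternative run (of 22 fitted, but 43 with no filter and 20 with the filter on mean FPKM), and leaving out single mice gave 0 to 0. Members at the threshold of the study numbered 0 in the reported analysis and 1 with no filter (*Mmp10*), without both rFGF4 mouse 1 and vehicle mouse 5 (*Mmp2*), and without vehicle mouse 5 alone (*Mmp2*, where 2.85% of all genes passed). An unadjusted p under 0.05 was reached by 1 member with no filter, 1 with array weights (*Adamts15*, -0.46, unadjusted p = 0.0297 in limma) and 1 without both mice, where 4.08%, 12% and 5.68% of all genes fitted passed, and groups did not overlap for 1 member without both. With 1 mouse left out, each of these 3 counts ran from 0 to 1. Of all tested genes 2.84% to 9.44% then had an unadjusted p under 0.05 in limma. The threshold was passed by 1.23% to 3.8%, and groups did not overlap for 4.44% to 11%. With single mice left out the median log2 fold change of the members ran from -0.01 to 0.47. With a block for shared mouse numbers it was -0.21, against -0.02 over all tested genes. The r of *Mmp14* and *Timp2* ran from 0.917 to 0.982 with single mice left out, and was 0.762 without both mice. The cause of these changes was not tested.

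Signs of uncalled members turned under several settings. *Mmp8* was 0.13 with a pseudocount of 0.1. The median ratio scaling gave -0.050 for *Timp3*, -0.021 for *Mmp15*, -0.028 for *Mmp28* and -0.014 for *Mmp23*. Equal summed FPKM gave 0.051 for *Adamts9*, and array weights gave -0.0091 for *Timp3* and -0.00077 for *Mmp28*. With each mouse, or those 2 together, left out, the ranges were -0.33 to 0.90 for *Mmp3*, -0.020 to 1.03 for *Timp2*, -0.0027 to 0.66 for *Adamts2*, -0.19 to 0.34 for *Mmp15*, -0.032 to 0.052 for *Mmp28*, -0.022 to 0.56 for *Adamts10*, -0.33 to 0.45 for *Mmp23*, -0.075 to 0.49 for *Adamts5*, -0.0056 to 0.17 for *Timp3*, -0.25 to 1.88 for *Mmp7*, -0.48 to 0.39 for *Mmp8*, -0.69 to 0.069 for *Mmp9*, -0.61 to 0.11 for *Mmp11* and -0.16 to 0.051 for *Adamts9*.

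The mouse numbers shared by the groups are not described as pairs, and deviations of same-numbered mice correlated at -0.229, -0.155 and -0.393 for numbers 2, 3 and 5. With these numbers as a replicate block 4 of 22 members were higher, and the sign turned for 13, with -0.44 for *Mmp3*, -0.020 for *Adamts4*, -0.16 for *Mmp14*, -0.28 for *Timp2*, -0.17 for *Adamts2*, -0.0073 for *Adamts6*, -0.34 for *Mmp15*, -0.047 for *Mmp28*, -0.21 for *Adamts10*, -0.25 for *Mmp2*, -0.26 for *Mmp7*, -0.50 for *Mmp23* and -0.15 for *Adamts5*. No member passed the test with it. Only mice 2, 3 and 5 of each group bear on that fit. With 4 mice a group, a depth that is unknown and levels that differ up to the floor within a group, differences of the size of the intervals given could not be seen.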
